A study of Mus musculus with 6 samples.

Results

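T lymphocytes recognise antigen through a receptor of α and β or of γ and δ chains, whose genes are assembled by V(D)J recombination from variable (V), diversity (D), joining (J) and constant (C) segments. The CD3γ, CD3δ and CD3ε chains and the ζ chain carry no antigen specificity and pass the signal of the receptor into the cell. Constant genes and unrearranged D and J segments can also be transcribed before a locus is recombined, so that such RNA occurs in progenitors as well as in T cells.

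The T cell receptor and CD3 genes described here are 10 of the 45706 genes of the table: Tcrg-C1, Tcrg-C4, Trgj1, Trbc1, Trbc2, Trac, Cd3g, Cd3d, Cd3e and Cd247. The first 6 are receptor genes, of which Trgj1 is a J segment and the others are constant genes, and the last 4 encode the CD3 and ζ chains. They were chosen on their counts in the cKO against Ctrl contrast, so that their values in this contrast are a description and were given no test.

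Total RNA of LSK cells (Lin- Sca-1+ c-Kit+), the bone marrow gate that holds stem cells and multipotent progenitors, was sequenced from 3 Ctrl and 3 cKO mice with 1 library per mouse. All 6 were C57BL/6 males with 1 copy of RC, a Rosa26-Cre-ERT2 allele that is active in almost all tissues once tamoxifen is given. Ctrl mice carried the conditional Setd1b allele on 1 chromosome (FD/+; RC/+) and therefore also lost a copy of the gene, whereas cKO mice carried it on both (FD/FD; RC/+). Tamoxifen was given to both groups, by the labels, by gavage at 4.5 mg per day on 4 days and, after a pause of 3 days, on 2 further days, and cells were collected 3 days after the last treatment. The paper describes the groups as littermates and gives another number of doses. The mice were 16 weeks old, apart from cKO replicate 3 at 17 weeks. Between 13003573 and 21277519 reads per library were counted on genes. By the numbers given to the libraries in the header there are 2 groups, of which the first holds Ctrl replicate 1 and cKO replicates 1 and 2 and the second holds the other 3 libraries.

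Setd1b, the targeted gene, had 2891, 4068 and 3481 counts in Ctrl replicates 1, 2 and 3 and 4061, 4541 and 4477 counts in cKO replicates 1, 2 and 3. Its total was thus higher in the libraries labelled cKO (log2 fold change 0.46, Benjamini-Hochberg adjusted p = 0.0015 in edgeR). The conditional allele loses a single exon, which counts per gene do not resolve, so that this total checks the labels little. Directions are given below as libraries labelled cKO against Ctrl. Genes of the LSK gate were counted in every library, with Cd34 the most abundant per kilobase of the list (59.1 CPM per kb).

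A gene at 3 counts or fewer in every library of a group was taken as at the floor. By this rule 3 of the 10 genes (Trac, Cd3d and Cd3e) were at the floor in both groups, 2 (Trgj1 and Cd3g) in the libraries labelled cKO alone, and 5 in neither. Just above the floor were Tcrg-C4 with a highest cKO count of 4, Trbc2 with highest counts of 5 and 4, and Cd3g with 6 counts in a Ctrl library. Just within it was Trgj1, with a highest cKO count of 2.

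Of the γ chain genes, Tcrg-C1 gave the most counts. It encodes the constant part of γ chains and lies at chr13:19214103-19217024 (mm10). Tcrg-C1 had 276, 310 and 230 counts in Ctrl replicates 1, 2 and 3 and 13, 15 and 19 counts in cKO replicates 1, 2 and 3. In CPM, counts scaled to library size, the mean of 3 mice with its SD was 16.9 ± 3.68 for Ctrl and 1.05 ± 0.246 for libraries labelled cKO. Every library labelled cKO lay far below every Ctrl library, and Ctrl replicate 1 was the highest. The pooled level was 15.7 times higher in Ctrl, with a 95% interval from 11.7 to 21.5 (exact binomial; intervals cover counting error only and not the spread between mice). In bulk RNA, fewer cells with these transcripts and less of them per cell cannot be told apart.

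Tcrg-C4, the constant gene of another γ cluster at chr13:19344558-19352756, had 49, 27 and 27 counts in Ctrl replicates 1, 2 and 3 and 1, 4 and 1 counts in cKO replicates 1, 2 and 3. The groups did not overlap, and 4 of the 6 cKO counts came from replicate 2. Pooled, the level was 15.5 times higher in Ctrl (95% interval 6.89 to 43.3), and 30.3 times (8.17 to 253) without cKO replicate 2. Trgj1, the J segment upstream of Tcrg-C1, had 37, 27 and 30 counts in Ctrl and 1, 0 and 2 counts in cKO in the same order. It was at the floor in all 3 libraries labelled cKO and well above it in all 3 Ctrl libraries. Its pooled ratio was 28.3, with a wide interval from 9.40 to 140, and it was 18.4 (6.11 to 90.9) without cKO replicate 2 and 58.0 (10.2 to 2316) without cKO replicate 3.

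Trgj1 has 60 bases at chr13:19210343-19210402, fewer than the 75 bases of a read. A read that overlapped exons of more than 1 gene was assigned to none of them under the options in the header, so a read spliced from Trgj1 to Tcrg-C1 entered neither count. The γ J segments Trgj1, Trgj2 and Trgj3 are also close copies of each other, which is shown here because only reads that aligned to a unique place were counted. The sequences are those of the GENCODE M21 transcripts on GRCm38, 5′ to 3′ on the strand of the gene. Capitals mark bases of Trgj2 and Trgj3 that differ from Trgj1 and, in Trgj1, the positions at which either differs.
Trgj1: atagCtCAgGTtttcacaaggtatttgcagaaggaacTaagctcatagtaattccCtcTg
Trgj2: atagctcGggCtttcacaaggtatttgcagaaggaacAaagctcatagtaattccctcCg
Trgj3: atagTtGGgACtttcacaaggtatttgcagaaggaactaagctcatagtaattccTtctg
Trgj2 (chr13:19311245-19311304, minus strand) differs from Trgj1 at 4 of 60 bases and Trgj3 (chr13:19257117-19257176) at 6. Trgj2 had 12 counts over the 6 libraries, 8 in Ctrl replicate 1 and 4 in cKO replicate 3, and Trgj3 had none. Of the 850 windows of 75 bases in the Tcrg-C1 transcript, 82.4% were in no transcript of another gene, and the others were shared with Tcrg-C2 or Tcrg-C3. For Tcrg-C4 none of the 911 windows was shared. The split of reads among Tcrg-C1, Tcrg-C2 and Tcrg-C3 and among these J segments is therefore uncertain, which Tcrg-C4 does not share.

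Of the β chain genes, Trbc1 and Trbc2 encode near-identical constant regions, each behind its own D and J cluster. Trbc1 (chr6:41538218-41539881) had 87, 77 and 34 counts in Ctrl replicates 1, 2 and 3 and 1, 7 and 0 counts in cKO replicates 1, 2 and 3. The groups did not overlap, although Ctrl replicate 3 was the lowest of its group and 7 of the 8 cKO counts were in replicate 2. For Ctrl the mean was 4.17 ± 2.28 CPM, and for libraries labelled cKO 0.171 ± 0.240 CPM (SD, n = 3 each). Pooled, it was 22.4 times higher in Ctrl (95% interval 11.1 to 52.6), and 116 times (20.6 to 4617) without cKO replicate 2, when 1 cKO count is left. Trbc2 (chr6:41546730-41548352) had 3, 5 and 0 counts in Ctrl and 0, 0 and 4 counts in cKO, so that the groups overlapped and a difference was not detectable at this depth (pooled ratio 1.81, 95% interval 0.485 to 8.21). Between Trbc1 and Trbc2, 233 windows of 75 bases were the same, which leaves 65.4% of the Trbc1 windows and 62.3% of the Trbc2 windows in no other gene. Reads from the shared stretches have no unique place and were not counted, so both counts are of the differing stretches.

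Trac, the constant gene of the α chain at chr14:54220521-54224206, had 0, 1 and 0 counts in Ctrl and 0, 1 and 2 counts in cKO. With both groups at the floor no fold can be given. The α chain is joined last in thymocyte development, and its constant gene was close to 0 in the same Ctrl libraries in which Tcrg-C1 had over 200 counts.

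**Figure D1:**
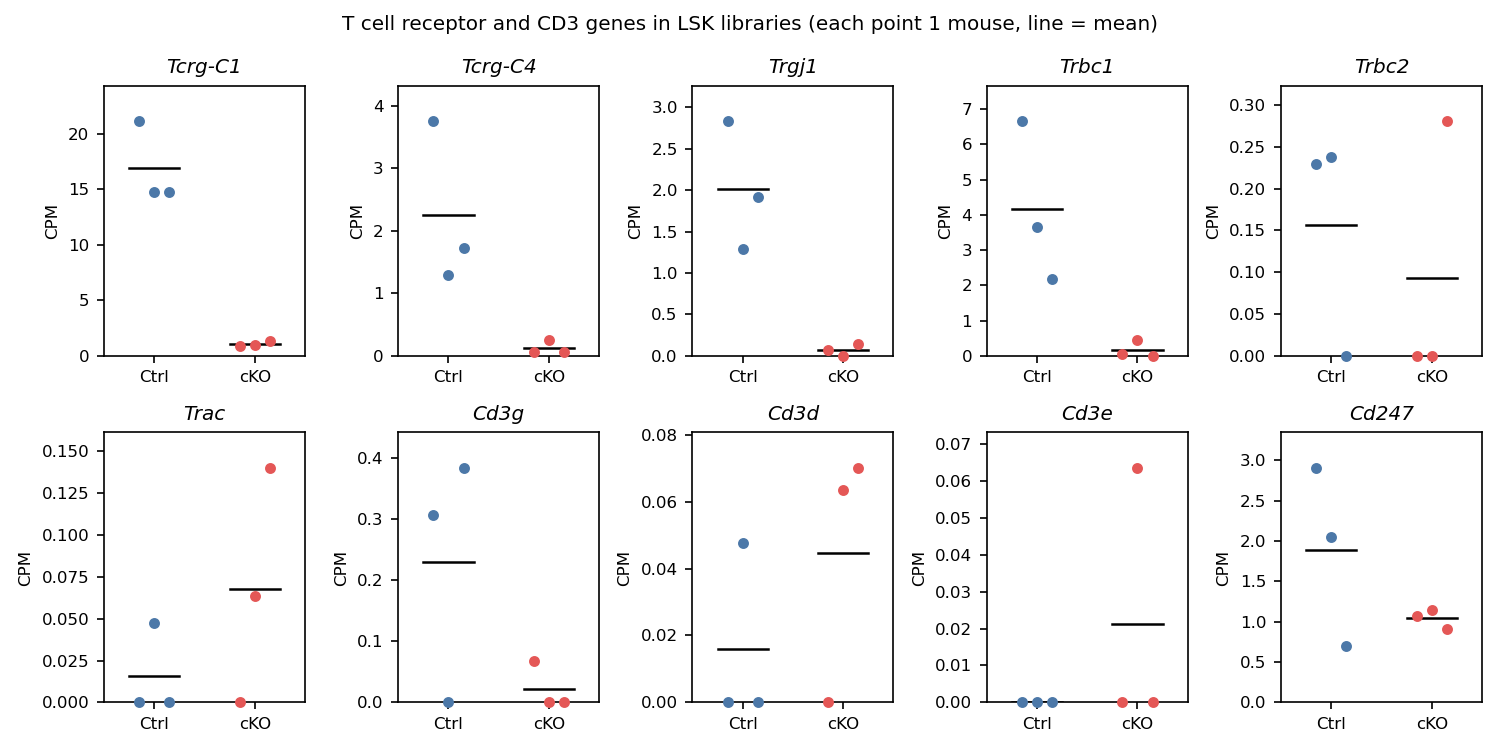
Level of each of the 10 genes in CPM (linear axis from 0, with its own scale per gene) in the 3 Ctrl and the 3 cKO libraries, with 1 point per mouse and the mean as a line. Tcrg-C1, Tcrg-C4, Trgj1 and Trbc1 have every cKO point below every Ctrl point, whereas Trbc2, Trac, Cd3g, Cd3d, Cd3e and Cd247 overlap.

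Of the CD3 chains, which every surface T cell receptor needs, Cd3g (chr9:44969572-44980431) had 4, 0 and 6 counts in Ctrl replicates 1, 2 and 3 and 1, 0 and 0 counts in cKO. The groups overlapped at 0, and the pooled ratio of 9.04 had a 95% interval from 1.29 to 392. Cd3d (chr9:44981793-44987052) had 0, 1 and 0 counts in Ctrl and 0, 1 and 1 in cKO, and Cd3e (chr9:44998743-45009590) had 0 in each Ctrl library and 0, 1 and 0 in cKO. These 3 neighbouring genes together gave 11 counts in the 3 Ctrl libraries, against 1220 counts for the 6 receptor genes.

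Cd247 (chr1:165788681-165877277) encodes the ζ chain, which also signals for receptors of NK cells. It had 38, 43 and 11 counts in Ctrl replicates 1, 2 and 3 and 16, 18 and 13 counts in cKO replicates 1, 2 and 3. Ctrl replicate 3 lay below every library labelled cKO in CPM, so that the groups overlapped. For Ctrl the mean was 1.89 ± 1.11 CPM, and for libraries labelled cKO 1.04 ± 0.119 CPM (SD, n = 3 each). The pooled ratio was 1.77 (95% interval 1.23 to 2.57). The fitted log2 fold change of Cd247 was -0.84 over all libraries, -0.43 without Ctrl replicate 1 and -1.23 without Ctrl replicate 3. Cd247 shares 206 exon bases with Gm16565 on the same strand, in which reads were assigned to neither gene, and its count is uncertain to that extent. It also shares 3007 exon bases with Pou2f1 on the opposite strand, where its count depends on the strand-specific counting. Of its 5465 windows of 75 bases, 46.5% were in no transcript of another gene.

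Of the 5 genes that passed the filter on low counts (Tcrg-C1, Tcrg-C4, Trgj1, Trbc1 and Cd247), 4 had every library labelled cKO below every Ctrl library in CPM, as did 13.4% of all 15184 genes tested. The genes were chosen on this contrast, and nothing is read from that count. The other 5 did not pass the filter.

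Per kilobase, the order of levels in Ctrl was led by Trgj1 (33.5 ± 12.9 CPM per kb), a value that its shortness raises since a read need only touch the segment, and by Tcrg-C1 (18.3 ± 3.98 CPM per kb). Trbc1 followed at 5.56 ± 3.05, Tcrg-C4 at 2.29 ± 1.33 and Cd247 at 0.354 ± 0.208 CPM per kb (SD, n = 3 each). Over the Ctrl mice, the ranges of Trgj1 and Tcrg-C1 overlapped, as did those of Trbc1 and Tcrg-C4 and those of Cd247, Trbc2 and Cd3g. Within each Ctrl library, however, Trgj1 was above Tcrg-C1, Trbc1 above Tcrg-C4 and Cd247 above Trbc2. The ranges of Tcrg-C1 and Trbc1, and those of Tcrg-C4 and Cd247, did not overlap. In the libraries labelled cKO, Tcrg-C1 was at 1.14 ± 0.267 and Cd247 at 0.196 ± 0.0223 CPM per kb, so that the distance between them was smaller than in Ctrl.

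Summed over the 6 receptor genes, the level was 34.6, 21.3 and 20.5 CPM in Ctrl replicates 1, 2 and 3. It was 1.07, 1.72 and 1.96 CPM in cKO replicates 1, 2 and 3. The log2 ratio of the means was -4.01, and it was -4.63 in the first group of library numbers, whose only Ctrl library was the highest of all, and -3.41 in the second. The 4 CD3 genes summed to 3.21, 2.10 and 1.09 CPM in Ctrl and to 1.14, 1.27 and 0.982 CPM in cKO. Their groups overlapped, and the log2 ratio was -0.92, with -1.42 and -0.70 in the groups of library numbers, -0.49 without Ctrl replicate 1 and -1.23 without Ctrl replicate 3.

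Apart from these genes the table holds 263 T cell receptor segments, of which 46 had a count and 217 had none. Tcrg-C2 and Trdc alone passed the filter, through their counts in Ctrl. Tcrg-C2, a γ constant gene on the minus strand at chr13:19304649-19307551, had 32, 21 and 16 counts in Ctrl and 2, 1 and 0 counts in cKO. Trdc, the constant gene of the δ chain at chr14:54142851-54148868, had 15, 22 and 12 counts in Ctrl and 0, 2 and 0 in cKO. Both fell past the threshold in edgeR (adjusted p = 0.0034 for Tcrg-C2 and 0.0061 for Trdc), with all 3 libraries labelled cKO below every Ctrl library. As both are at the floor in cKO, the pooled ratios of 20.8 (95% interval 6.83 to 103) and 22.2 (5.82 to 188) are given in place of fitted values. The size of these ratios rests on few cKO counts. Of the 3 cKO counts of Tcrg-C2, 2 were in replicate 1. Both cKO counts of Trdc were in replicate 2, without which its ratio has no finite value.

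The counts were spread unevenly over the kinds of segment. The 4 γ constant genes had 990 counts in Ctrl and 56 in cKO, and the 7 γ V segments had 24 and 1. The 60 α J segments had no count in any library, and the 130 α V segments had 36 counts in Ctrl and 24 in cKO, a pooled ratio of 1.36 with a 95% interval from 0.787 to 2.38. The α V segments thus showed no difference detectable at this depth. The 34 β V segments had 31, 45 and 18 counts in Ctrl replicates 1, 2 and 3 and 6, 13 and 19 in cKO replicates 1, 2 and 3, so that the groups overlapped (pooled ratio 2.24, 95% interval 1.52 to 3.35). Without Trbv12-2 and Trbv13-2, the other 32 had 22 counts in each group, 18 of those in cKO being in replicate 3. The 2 β constant genes had 206 and 12 counts (ratio 15.5, interval 8.70 to 30.5). Trbv12-2 had 11, 22 and 6 counts in Ctrl and 2, 2 and 1 in cKO. Trbv13-2 had 12, 9 and 12 counts in Ctrl and 2, 9 and 0 in cKO. The V segment gene B230359F08Rik had 7, 5 and 8 counts in Ctrl and 5, 3 and 3 in cKO. These V segments did not pass the filter and were not tested.

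**Figure D2:**
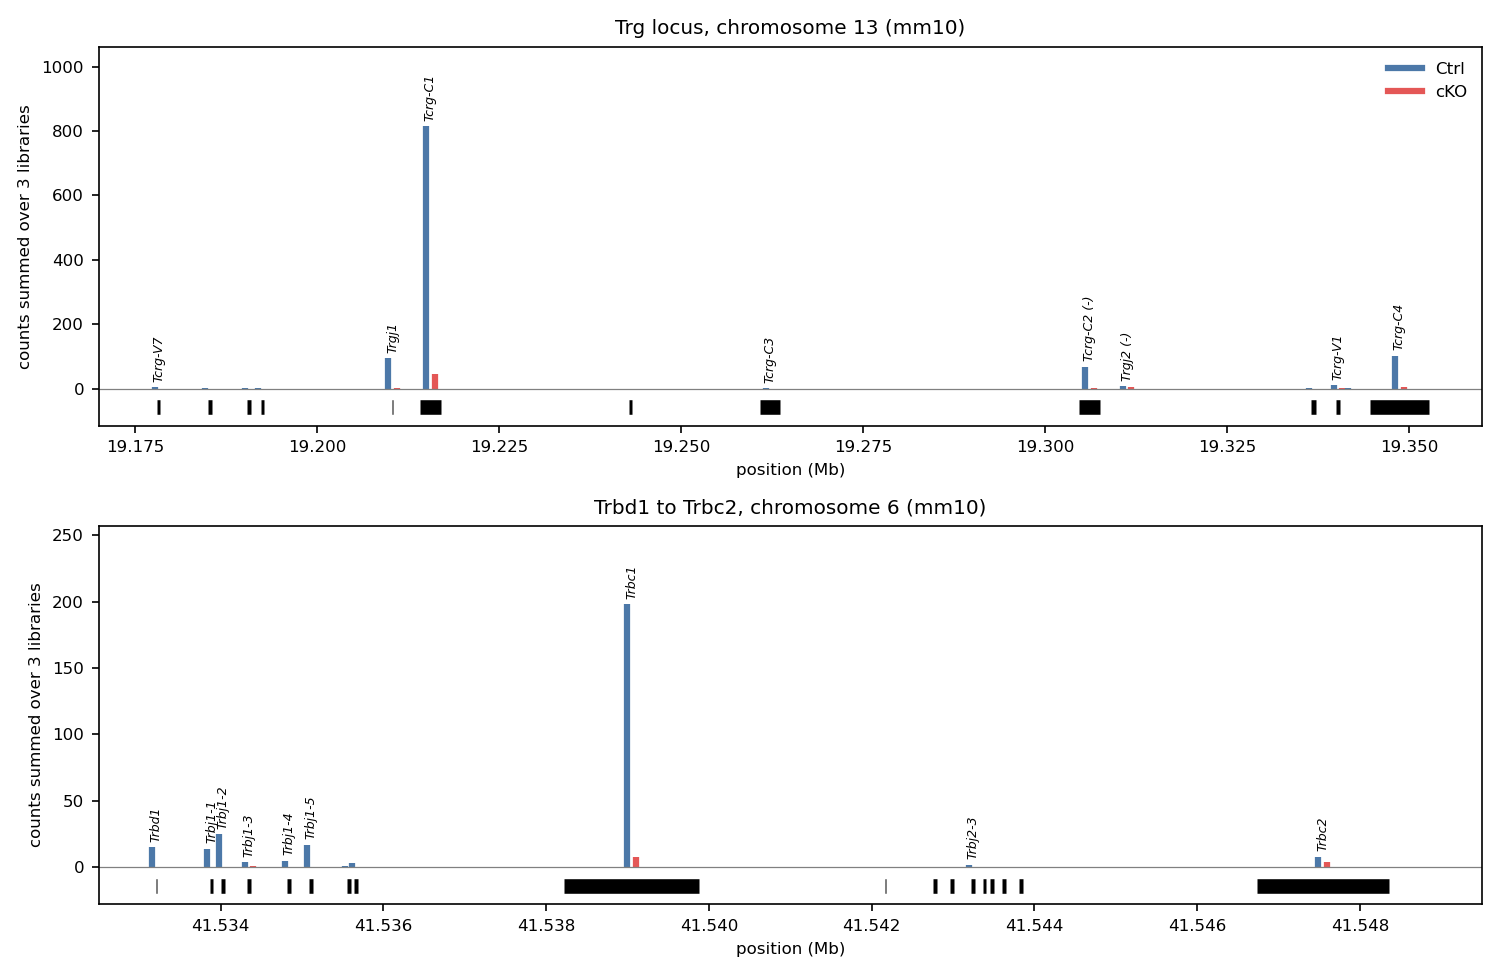
Maps to scale of the γ locus and of the β locus from Trbd1 to Trbc2 (mm10, position in Mb). Black blocks are genes of the table, and bars give counts summed over the 3 Ctrl and the 3 cKO libraries, not scaled for depth (genes with 5 or more counts, the constant genes and Trbj2-3 are named, and (-) marks the minus strand). Most counts of Ctrl lie at Tcrg-C1 in the γ locus, with fewer at Tcrg-C4, Trgj1 and Tcrg-C2, and, in the stretch shown of the β locus, at Trbc1 and the D and J segments before it.

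The β locus has a pair of D-J-C clusters, and in Ctrl the counts lay almost wholly in that of Trbc1. In cKO replicate 3, by contrast, Trbc2 had 4 counts and Trbc1 had 0. From Trbd1 to Trbj1-7, 8 segments had 36, 39 and 9 counts in Ctrl replicates 1, 2 and 3 and 0, 0 and 1 counts in cKO replicates 1, 2 and 3. Every library labelled cKO was below every Ctrl library, and the pooled ratio was 76.0 with a 95% interval from 13.3 to 3036. The only cKO count was in replicate 3, and without that library the ratio has no finite value. From Trbd2 to Trbj2-7, 8 segments had 0, 2 and 0 counts in Ctrl and 0 in each library labelled cKO, the 2 counts being those of Trbj2-3. Per kilobase of segment, the cluster before Trbc1 had 232 counts in Ctrl and the cluster before Trbc2 had 5.60.

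The segments of this cluster with the most counts show how short the counted stretches are, and were named after their values were seen. Trbj1-2 had 14, 9 and 2 counts in Ctrl, Trbj1-5 had 3, 13 and 1, Trbd1 had 1, 12 and 2, and Trbj1-1 had 8, 2 and 4, and all 4 had 0 counts in each library labelled cKO. All are shorter than a read. Capitals mark the codons of the Phe-Gly-X-Gly motif that J segments share. They were found in 56 of the 80 J segments of the T cell receptor loci (70%), in 5 of 7 before Trbc1, 6 of 7 before Trbc2 and none of the 4 γ J segments, and on the opposite strand in none. The sequences are from the same transcripts, 5′ to 3′ on the plus strand.
Trbd1: gggacagggggc
Trbj1-1: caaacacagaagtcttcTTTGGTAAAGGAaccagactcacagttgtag
Trbj1-2: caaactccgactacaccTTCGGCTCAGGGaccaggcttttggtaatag
Trbj1-5: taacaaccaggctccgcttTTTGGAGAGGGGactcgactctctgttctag
They lie on chromosome 6, Trbd1 at 41533201-41533212, Trbj1-1 at 41533864-41533911, Trbj1-2 at 41534001-41534048 and Trbj1-5 at 41535084-41535133.

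Among genes of recombination and the pre-T cell receptor, 1 of 3 tested passed edgeR's threshold (adjusted p < 0.05) as lower with the label cKO and 0 as higher, against 3.79% lower and 3.88% higher of all 15184 genes tested. At an unadjusted p under 0.05, 2 were lower and 0 higher, against 11.5% and 11.3% of all genes tested, and DESeq2 called the same numbers as edgeR. This gene was Dntt, the terminal transferase that adds bases at V(D)J joints, with 3546, 11526 and 3422 counts in Ctrl and 54, 94 and 120 in cKO (log2 fold change -5.86, adjusted p = 4.9e-08 in edgeR). Dntt was also the most abundant gene of the list per kilobase. Rag1 and Rag2, the recombinase, did not pass, with log2 fold changes of -0.19 and -0.66 (adjusted p = 0.79 and 0.13 in edgeR). Ptcra, the partner of the β chain in thymocytes, had 0 counts in every library. The median of the list was -0.66, beside 0.00 for all genes tested.

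Of 28 genes of proximal T cell receptor signalling, 24 were tested, and 2 were lower and 2 higher (5 and 9 at an unadjusted p under 0.05, and 2 and 3 with DESeq2). Over all genes tested, the shares were 3.79% lower and 3.88% higher (11.5% and 11.3% at an unadjusted p under 0.05). The median log2 fold change of the list was 0.12, beside 0.00 for all genes tested. Ubash3a, a negative regulator of receptor signalling, fell (log2 fold change -0.82, adjusted p = 4.9e-04 in edgeR), and Themis, a thymocyte signalling protein, had 21, 32 and 14 counts in Ctrl and 2, 3 and 0 in cKO (pooled ratio 12.1, 95% interval 4.94 to 38.5, adjusted p = 0.0056 in edgeR). The kinase Fyn and the phospholipase Plcg1 rose by 0.48 and 0.47 (adjusted p = 0.0053 and 8.0e-04 in edgeR). Both are also widely used outside T cells, as is Csk, the most abundant of the list (74.1 CPM per kb). Sit1 was at the floor in every library. The summed level of the list was 1859, 1712 and 1768 CPM in Ctrl and 1910, 1904 and 1976 CPM in cKO. Every library labelled cKO was thus above every Ctrl library, opposite to the receptor genes.

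Of 19 coreceptor and surface genes 14 were tested, and 2 were lower and 0 higher (7 and 4 at an unadjusted p under 0.05, and 2 and 0 with DESeq2). Over all genes tested, the shares were 3.79% lower and 3.88% higher (11.5% and 11.3% at an unadjusted p under 0.05). Il7r, the interleukin 7 receptor chain, fell (log2 fold change -1.42, adjusted p = 0.014 in edgeR), a call that was lost without Ctrl replicate 2 (-1.16, adjusted p = 0.060) or cKO replicate 2 (-1.42, adjusted p = 0.064 in edgeR). The median was -0.50, the most abundant gene was Cd27 (73.5 CPM per kb), and Cd8a and Cd8b1 were at the floor in every library. The summed level was 449.9, 470.1 and 454 CPM in Ctrl and 349.6, 335 and 358 CPM in cKO, with no overlap.

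Of 16 transcription factors of the T lineage 14 were tested, and 2 were lower and 0 higher (5 and 1 at an unadjusted p under 0.05, and 2 and 0 with DESeq2). Over all genes tested, the shares were 3.79% lower and 3.88% higher (11.5% and 11.3% at an unadjusted p under 0.05). Tcf7, which encodes TCF-1, had 482, 505 and 227 counts in Ctrl and 151, 246 and 188 in cKO, with overlap in CPM (log2 fold change -0.95, adjusted p = 0.031 in edgeR). It missed the threshold of edgeR without Ctrl replicate 1 (-0.58, adjusted p = 0.11) or without cKO replicate 1, 2 or 3 (adjusted p = 0.12, 0.055 and 0.089), and with DESeq2 (adjusted p = 0.16). Zbtb16, the factor PLZF of innate-like lymphocytes, fell by 0.60 (adjusted p = 0.019 in edgeR), and missed the threshold without Ctrl replicate 1 or cKO replicate 1 or 2 (adjusted p = 0.070, 0.072 and 0.11). The median was -0.14, and Runx3 was the most abundant (41.2 CPM per kb). Dtx1 was at the floor. The summed level was 696, 716 and 624 CPM in Ctrl and 608, 696 and 695 CPM in cKO, so that the groups overlapped.

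Markers of other cell types were counted in the same way, and the part of such cells in the level of the receptor genes was not tested. Each of the 12 genes that define mature T cells also stands in the signalling, coreceptor or transcription factor list above, so that this list repeats their values. Of these 9 were tested, and Themis alone was lower and 0 were higher (4 and 2 at an unadjusted p under 0.05, and 2 and 0 with DESeq2). Over all genes tested, the shares were 3.79% lower and 3.88% higher (11.5% and 11.3% at an unadjusted p under 0.05). Cd8a and Cd8b1 were at or near 0. Of the 9 tested, 5 had a fitted log2 fold change below 0. Cd4 had 17, 49 and 32 counts in Ctrl and 53, 45 and 53 in cKO. Bcl11b went the other way, with 65, 73 and 32 counts in Ctrl and 4, 25 and 24 in cKO. Neither overlapped in CPM, and neither passed (adjusted p = 0.13 for Cd4 and 0.066 for Bcl11b in edgeR). The summed level of the list was 48.6, 60.5 and 44.6 CPM in Ctrl and 48.5, 55.6 and 55.3 CPM in cKO, and Lat was the most abundant (16.3 CPM per kb). Much of this sum came from Lat and Lck, with means of 18.1 and 18.2 CPM in Ctrl. The median was -0.61.

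Of 17 NK, ILC and cytotoxic genes 9 were tested, and 4 were lower and 0 higher, beside 3.79% and 3.88% of all genes tested (4 and 0 at an unadjusted p under 0.05, beside 11.5% and 11.3%, and 5 and 0 with DESeq2), with a median of -0.85. Gzmb, granzyme B, had 134, 82 and 73 counts in Ctrl and 3, 6 and 3 in cKO (log2 fold change -4.50, adjusted p = 4.7e-05 in edgeR). Klrk1, the receptor NKG2D, had 25, 34 and 34 counts in Ctrl and 0, 6 and 6 in cKO (-2.79, adjusted p = 0.011, and 0.052 without Ctrl replicate 3 in edgeR). Nkg7, a protein of cytotoxic granules, fell by 0.85 (adjusted p = 8.2e-04 in edgeR). The chemokine Ccl5 fell by 0.96 (adjusted p = 0.031 in edgeR), a call lost without Ctrl replicate 1 or 2 or cKO replicate 1, 2 or 3 (adjusted p = 0.084, 0.097, 0.065, 0.13 and 0.066). Of the 9 tested, 8 had a fitted log2 fold change below 0. Klrb1c did not, with 30, 9 and 19 counts in Ctrl and 35, 38 and 18 in cKO. Its groups overlapped in CPM (log2 fold change 0.68, adjusted p = 0.47 in edgeR). The summed level of the list was 116, 111 and 127 CPM in Ctrl and 84.0, 76.0 and 72.9 CPM in cKO, with no overlap. Tyrobp was the most abundant (43.6 CPM per kb), and Gzmk had 0 counts in every library.

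Of 11 B cell genes 4 were tested, and Vpreb1 alone was lower and 0 were higher (1 and 1 at an unadjusted p under 0.05 and with DESeq2), with a median of 0.05. Over all genes tested, the shares were 3.79% lower and 3.88% higher (11.5% and 11.3% at an unadjusted p under 0.05). Vpreb1, part of the surrogate light chain, fell by 1.99 (adjusted p = 0.028 in edgeR), which was lost without Ctrl replicate 1 or 2 or cKO replicate 1, 2 or 3 (adjusted p = 0.090, 0.076, 0.095, 0.13 and 0.056). Blnk went the other way, with 71, 159 and 51 counts in Ctrl and 129, 248 and 116 in cKO. Its groups did not overlap in CPM (log2 fold change 0.98, adjusted p = 0.052 in edgeR). Of the 4 tested, 2 had a fitted log2 fold change below 0. Ms4a1 and Cr2 were at the floor, and Cd79b was the most abundant (11.5 CPM per kb). The summed level was 23.5, 30.0 and 21.7 CPM in Ctrl and 31.02, 33.4 and 28.5 CPM in cKO. Of the 6 genes of the LSK gate list 0 were lower and 1 higher, beside 3.79% and 3.88% of all genes tested. At an unadjusted p under 0.05 there were 1 and 1, beside 11.5% and 11.3%, and with DESeq2 0 and 1. The median of the 6 was -0.03. The higher gene was Procr, a marker of stem cells that does not define the gate, which rose by 1.43 (adjusted p = 3.6e-04 in edgeR). Kit and Ly6a, which do, had log2 fold changes of -0.04 and -0.23 (adjusted p = 0.84 and 0.33 in edgeR). Flt3 had -0.31 (adjusted p = 0.12 in edgeR). The sum of these 6 genes was 1276, 1175 and 1129 CPM in Ctrl and 1121, 1199 and 1092 CPM in cKO.

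**Figure D3:**
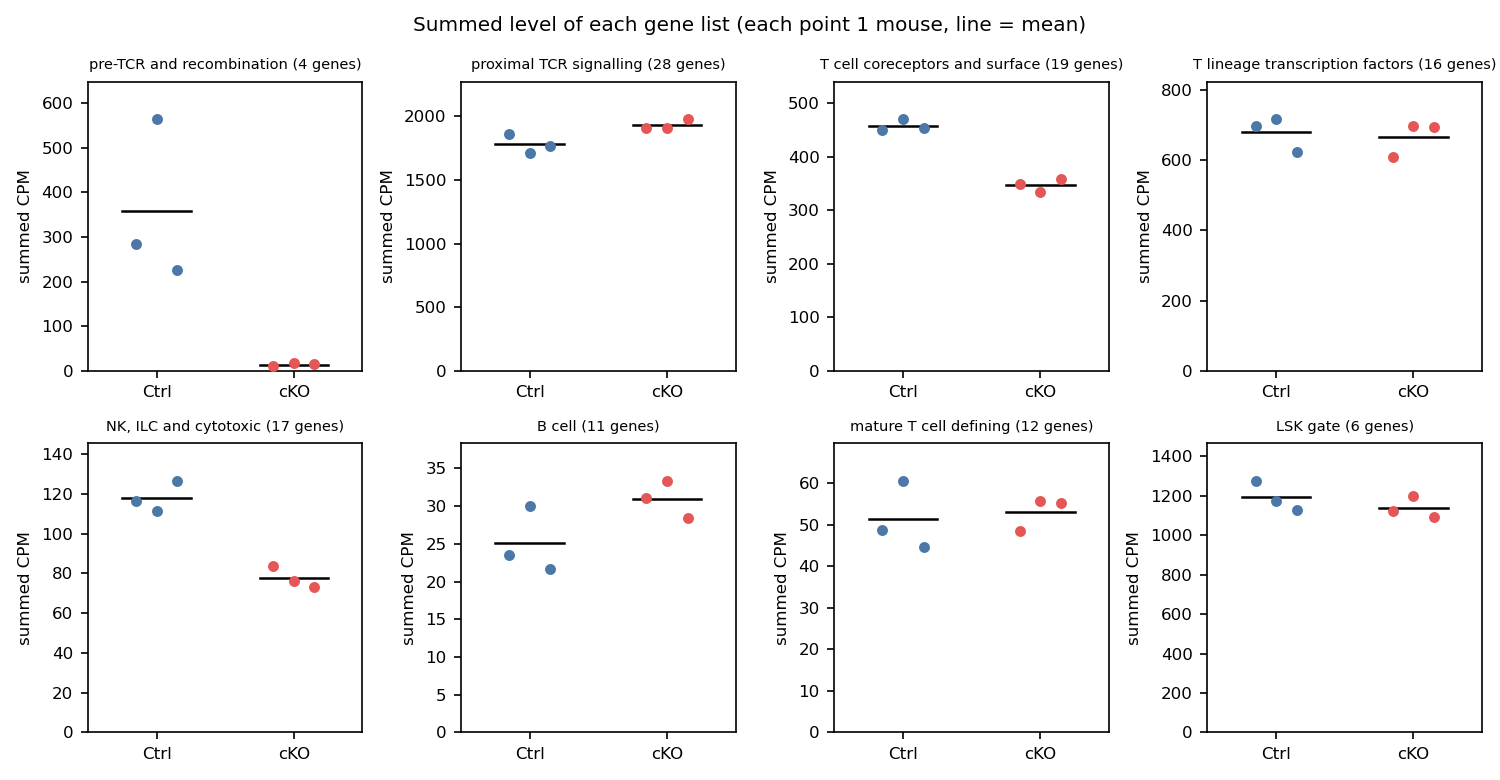
Summed CPM of each of the 8 gene lists (linear axis from 0) in the 3 Ctrl and the 3 cKO libraries, with 1 point per mouse and the mean as a line. The lists of recombination, of coreceptors and of NK, ILC and cytotoxic genes have every cKO point below every Ctrl point, that of proximal signalling has every cKO point above every Ctrl point, and the other lists overlap.

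Genes next to the loci were counted to see whether they moved with them. Of 30 tested genes, 3 on each side of each of 5 loci, 4 were lower and 1 higher in edgeR, beside 3.79% and 3.88% of all genes tested, with a median log2 fold change of -0.01. The nearest of the γ locus, Stard3nl, lies 4.92 kb beyond it and had 10.1 CPM in Ctrl and 10.2 CPM in the libraries labelled cKO, with a log2 fold change of 0.02 (adjusted p = 0.97 in edgeR). Farther along, 239 and 270.4 kb beyond the locus, Epdr1 fell by 1.64 (adjusted p = 4.1e-04 in edgeR) and Sfrp4, a secreted Wnt-binding protein, had 21, 27 and 14 counts in Ctrl and 0, 1 and 0 in cKO (pooled ratio 56.1, 95% interval 9.70 to 2250, adjusted p = 0.0015 in edgeR). Near the β locus Kel, which encodes the Kell blood group protein, fell by 1.34 at 128 kb (adjusted p = 0.0044 in edgeR). Mgam, 122 kb before it, fell by 1.77 (adjusted p = 0.045 in edgeR), and lost this call without Ctrl replicate 1 or 3 or cKO replicate 2 or 3 (adjusted p = 0.12, 0.12, 0.16 and 0.13). Before the α and δ locus Sall2, a zinc finger factor, rose by 0.63 (adjusted p = 0.0032 in edgeR). None of the 12 neighbours of the Cd3 cluster and of Cd247 passed in edgeR, and neither did Dad1, 11.3 kb after Trac (-0.27, adjusted p = 0.20).

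Over the 6 libraries, likeness to the summed receptor genes was measured as the mean absolute difference of centred log2 CPM, among 14286 genes with a mean of at least 1 CPM. The 3 most alike were Gzmb (0.28), Gm15915 (0.31) and Ms4a2, the β chain of the IgE receptor of mast cells and basophils (0.37). Ms4a2 had 277, 569 and 388 counts in Ctrl and 28, 39 and 27 in cKO, and Gm15915 had 457, 498 and 526 and 39, 44 and 41. For the summed CD3 genes, led by Cd247, the 3 most alike were Tcf7 (0.14), Ly86 (0.14) and Gm43195 (0.15). Ly86 had 225, 231 and 96 counts in Ctrl and 84, 94 and 57 in cKO. In Tcf7, Ly86 and Cd247, Ctrl replicate 3 was the lowest of its group in CPM and lay near the libraries labelled cKO.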

How the data were processed

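Per the labels and the methods of the study, RNA was amplified with a stranded total RNA kit and read as single reads of 75 bases. The deposited values are raw counts per gene, which the authors made with GSNAP and featureCounts 1.5.0 on mm10 with Ensembl genes, by their processing notes. Its header shows strand-specific counting and a mapping quality of at least 1. GENCODE M21 named 45143 of 45706 genes.

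CPM used TMM factors, and log2 CPM a prior count of 2. All genes kept by filterByExpr (15184) were tested with the quasi-likelihood test of edgeR 4.0.16 in R 4.3.3 with genotype as the only term and Benjamini-Hochberg adjustment (threshold 0.05). DESeq2 1.42.0, its size factors, other filters, the group of library numbers as a covariate and leaving out each mouse were alternatives. Pooled ratios divide summed counts by summed scaled library sizes.

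The genes described and the lists were chosen with earlier results of these data known. Named were the 10 genes, Setd1b, up to 6 called genes per list, its most abundant gene and markers at the floor, the 5 other receptor segments with the most counts, called neighbours and the 3 most alike genes. Other names were chosen after their values were seen, and the J segment motif was narrowed after a wider pattern had been searched.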

Additional observations from a re-analysis of the deposited data

How the results depend on the processing

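The 575 genes lower and 589 higher in the libraries labelled cKO became 873 and 809 with no filter on low counts, and between 308 and 594 lower and between 296 and 531 higher with 1 mouse left out. The fewest were called without cKO replicate 2, and without Ctrl replicate 3 there were 340 and 325. The log2 ratio of the summed receptor genes lay between -4.19 and -3.72 with 1 mouse left out, and was -4.63 and -3.41 within the groups of library numbers. The pooled ratios of Tcrg-C4, Trgj1 and Trbc1 moved by over 1.5 times without cKO replicate 2, and that of Trgj1 also without cKO replicate 3. With no filter, the genes past the threshold in either direction were 2 of recombination, 2 of the B cell, 2 of the mature T cell and 2 of the LSK list, and 4 other receptor segments. The remaining lists then had 6 (proximal signalling), 2 (coreceptors), 3 (T lineage factors) and 5 (NK, ILC and cytotoxic), and 7 neighbours passed. With at least 10 counts in every library, which leaves fewer genes to test, there were 2 NK, ILC and cytotoxic genes, 0 of 3 B cell genes, 0 of 4 mature T cell genes and 3 of 26 neighbours, and 0 other receptor segments could be tested. DESeq2 called 2 B cell and 2 mature T cell genes. With 1 mouse left out, the calls were 1 to 2 for coreceptors, 0 to 2 for T lineage factors, 0 to 1 for B cell genes and 1 to 2 for the LSK gate list. Apart from filtering, the cause of these differences was not tested. Of 25 named genes past the threshold, 17 passed under every alternative that gave a value, 8 missed it under at least 1, and 0 changed direction. No paired analysis was possible because neither the labels nor the paper say which of the littermates belong together. Depth limits Trbc2, Trac, Cd3d and Cd3e, whose few counts allow no statement on a difference.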
